A study of Mus musculus with 3 samples.

Results

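The genes described here are 51 mouse genes for Polycomb proteins, histone-modifying enzymes and DNA methylation enzymes, and the data are the peaks of the transcription factor Isl1 that lay at them. A gene was counted as carrying a peak when the deposited list of peaks named it as the gene with the closest transcription start site (TSS). Of the 14082 distinct peaks in that list, 54 named a gene of the set, and 41 of the 51 genes were named at least 1 time. The genes formed 5 groups, namely 16 Polycomb genes, 10 histone demethylases, 8 histone methyltransferases, 11 genes for histone acetylation and deacetylation, and 6 genes for DNA methylation and its removal.

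The sites of Isl1 were located by ChIP-Seq, the sequencing of DNA that an antibody pulls down with a protein, in cardiac progenitor cells (CPCs) derived from mouse embryonic stem cells (ESCs). The cells came from 1 ESC line, E14 Tg(Nkx2-5-EmGFP), which carries a green fluorescent reporter for the early cardiac gene Nkx2-5. The paper describes directed differentiation with BMP4, Activin A, VEGF, bFGF and FGF10, and also a hanging drop method. It does not state which served the ChIP-Seq. The cells were collected at day 5, and 3 samples were made, a pair of ChIP replicates with an antibody against Isl1 and 1 input of chromatin taken before precipitation. The sample titles name no difference in genotype or treatment, and both replicates carry the reporter. The list joins both replicates into 1 set of positions with no score, height or read number. The depth is therefore unknown, no spread between replicates can be given, and how strongly any site was occupied cannot be compared between genes. A gene without a peak in the list cannot be called unbound. The identity of the cells could not be checked against marker genes, because a list of binding sites holds no expression values.

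Chromatin-modifying enzymes write, erase and read chemical marks on histones and DNA. The Polycomb complex PRC2 methylates histone H3 at silent developmental genes, and PRC1 contains chromodomain proteins of the Cbx family that read this mark and a RING ligase that ubiquitylates histone H2A. Demethylases and deacetylases remove marks that methyltransferases and acetyltransferases place, while Dnmt enzymes methylate CpG dinucleotides and Tet enzymes oxidise the methyl group. In embryonic stem cells and their progeny the Polycomb complexes hold lineage genes silent or poised, and several chromatin-modifying enzymes are required for heart development.

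The promoter sequences below are examples of the DNA at these peaks, chosen by closeness to a TSS and not for being typical. For each group the peak closest to a TSS is represented by up to 200 bases of mm9 sequence upstream of that TSS and outside annotated exons, on the strand of the gene, with each CpG dinucleotide in capitals. The stretch for Ring1, which encodes the catalytic partner of PRC1, covers chr17:34161626-34161825 on the minus strand and holds 26 CpGs. The stretch for Kdm3a, a demethylase of histone H3, covers chr6:71582900-71583059 on the minus strand, ends 220 bp upstream of the TSS and holds 11 CpGs. The stretch for Dot1l, the methyltransferase of a lysine in the globular part of histone H3, covers chr10:80217751-80217950 on the plus strand and holds 36 CpGs. The stretch for Hdac4, a class IIa deacetylase active in muscle and heart, covers chr1:94076919-94077118 on the minus strand and holds 16 CpGs. The stretch for Dnmt3a, a de novo DNA methyltransferase, covers chr12:3891528-3891727 on the plus strand, lies at the internal promoter of the gene and holds 14 CpGs.
Ring1: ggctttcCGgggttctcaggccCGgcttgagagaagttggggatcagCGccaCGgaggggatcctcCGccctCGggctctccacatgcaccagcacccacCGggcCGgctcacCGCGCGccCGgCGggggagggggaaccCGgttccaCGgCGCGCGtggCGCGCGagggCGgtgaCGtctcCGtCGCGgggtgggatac
Kdm3a: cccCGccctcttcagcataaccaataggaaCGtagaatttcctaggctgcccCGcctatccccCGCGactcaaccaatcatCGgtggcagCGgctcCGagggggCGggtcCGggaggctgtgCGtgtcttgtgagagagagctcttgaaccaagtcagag
Dot1l: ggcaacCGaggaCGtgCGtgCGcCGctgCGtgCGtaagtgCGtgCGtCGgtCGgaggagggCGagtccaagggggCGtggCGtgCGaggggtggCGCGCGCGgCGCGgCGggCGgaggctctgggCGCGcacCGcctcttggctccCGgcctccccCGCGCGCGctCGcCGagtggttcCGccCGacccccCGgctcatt
Hdac4: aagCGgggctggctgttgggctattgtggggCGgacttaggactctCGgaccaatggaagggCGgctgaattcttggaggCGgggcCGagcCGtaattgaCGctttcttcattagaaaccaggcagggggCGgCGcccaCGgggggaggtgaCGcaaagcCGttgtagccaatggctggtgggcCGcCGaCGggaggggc
Dnmt3a: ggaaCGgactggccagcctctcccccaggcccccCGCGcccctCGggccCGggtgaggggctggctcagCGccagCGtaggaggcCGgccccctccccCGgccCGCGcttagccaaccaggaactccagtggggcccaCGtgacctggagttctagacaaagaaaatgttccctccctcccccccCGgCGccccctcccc
Their GC content was 74% for Ring1, 60.6% for Kdm3a, 78% for Dot1l, 64.5% for Hdac4 and 73.5% for Dnmt3a.

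Most chromatin-modifier genes carried an Isl1 peak, and most of those peaks lay at the promoter. An assigned peak was found at 41 of 51 genes (80.4%, 95% Wilson interval 67.5 to 89.0%), whereas the share was 37.5% of all 21896 protein-coding genes. A peak with its midpoint within 1 kb of the TSS was found at 36 of 51 genes (70.6%, 57.0 to 81.3%), against 23.2% of all protein-coding genes. A set of 10 genes carried 2 or more peaks (19.6%), against 10.6% of all protein-coding genes. These intervals cover counting error only, and no test was made because the genes were chosen with results of these data in view.

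The groups ran in the order Polycomb, methyltransferases, acetylation, demethylases and DNA methylation by the share of genes with any peak. Of the Polycomb genes 15 of 16 had a peak (93.8%, 71.7 to 98.9%) and 14 had one within 1 kb of the TSS (87.5%). The corresponding counts were 7 and 6 of 8 methyltransferase genes (87.5% and 75%), and 8 and 7 of 11 acetylation genes (72.7% and 63.6%). Among the 10 demethylase genes 7 had a peak and 5 had one within 1 kb (70% and 50%), and among the 6 DNA methylation genes 4 had both (66.7%). The intervals of neighbouring groups overlapped widely, from 30.0 to 90.3% for DNA methylation genes and from 39.7 to 89.2% for demethylases, so that the order of the groups is a description of these counts.

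**Figure D1:**
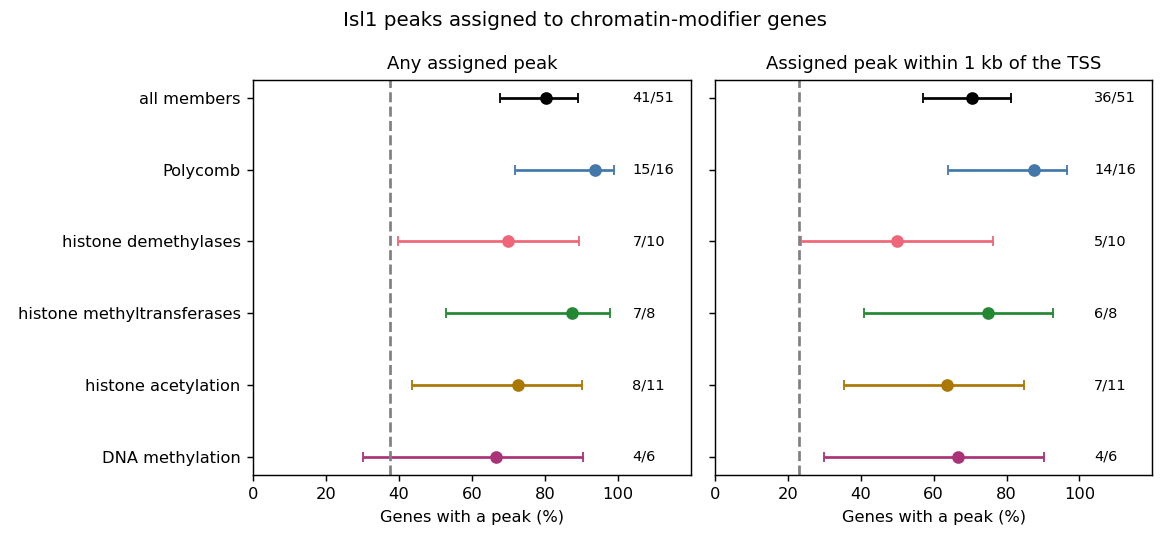
Share of genes with an assigned Isl1 peak (left) and with one within 1 kb of the TSS (right), in percent of the genes of the whole set and of each group, with 95% Wilson intervals and the counts at the right edge. The dashed lines mark the shares of all protein-coding genes, 37.5% and 23.2%, and all points lie to the right of them.

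Among the Polycomb genes, PRC2 was represented by 4 of 5 genes and PRC1 by all 11. Peaks lay at the genes of both PRC2 methyltransferases, with midpoints 121 bp downstream of the TSS of Ezh2 and 97 bp downstream of that of Ezh1. The peak at Suz12, a core PRC2 subunit, was centred 110 bp downstream of the TSS. Eed, whose protein reads the mark that PRC2 places, had no assigned peak. Jarid2, which encodes a cofactor that helps to recruit PRC2, had 2 peaks. The 1744 bp peak at chr13:44825059-44826803 was centred 212 bp upstream of a Jarid2 TSS, and the 914 bp peak at chr13:44828552-44829466 was centred 2369 bp downstream of the TSS to which it was assigned. The midpoint of this downstream peak was 400 bp from the start of a noncoding Jarid2 transcript, and 1749 bp separated the nearest ends of the peaks.

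Within PRC1, both RING ligase genes carried a promoter peak, centred 41 bp upstream of the TSS of Ring1 and 137 bp downstream of that of Rnf2. The peak at Ring1 spanned chr17:34161080-34162253, was 1173 bp wide and was the closest to a TSS in the Polycomb group. The Pcgf proteins that pair with the ligases were represented by Bmi1 and Pcgf2, with peaks centred 78 and 164 bp downstream of the TSS. All 3 genes for polyhomeotic proteins had a promoter peak, 79 bp upstream of the TSS at Phc1, 183 bp downstream at Phc2 and 351 bp downstream at Phc3. All 10 PRC1 promoter peaks lay within 351 bp of the TSS.

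The chromodomain genes Cbx2, Cbx7 and Cbx8 had promoter peaks centred 249 bp downstream, 95 bp downstream and 235 bp upstream of the TSS. Cbx2 and Cbx8 are neighbours on chromosome 11 with annotated starts 18007 bp apart, and 3 peaks were assigned to the pair. The promoter peak of Cbx2 was 1427 bp wide, and that of Cbx8 covered chr11:118901815-118903110 over 1295 bp. The remaining peak, at chr11:118917534-118918623, was 1089 bp wide with a central GC content of 71.5% and lay in intergenic DNA 15851 bp upstream of the Cbx8 TSS.

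Cbx6 was the PRC1 gene whose only assigned peak lay away from the TSS, at chr15:79671079-79671805, 6679 bp upstream, in repeated sequence. A 1355 bp peak at chr15:79663624-79664979 was centred 462 bp downstream of the TSS given for Cbx6 and 73 bp from the closest annotated Cbx6 start, but it carried the symbol Npcd, a gene that shares this start. A further peak of 1364 bp in a coding exon of Cbx6 was also assigned to Npcd. Counting peaks by position instead of symbol therefore placed a peak at the promoter of each of the 11 PRC1 genes of the set.

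**Figure D2:**
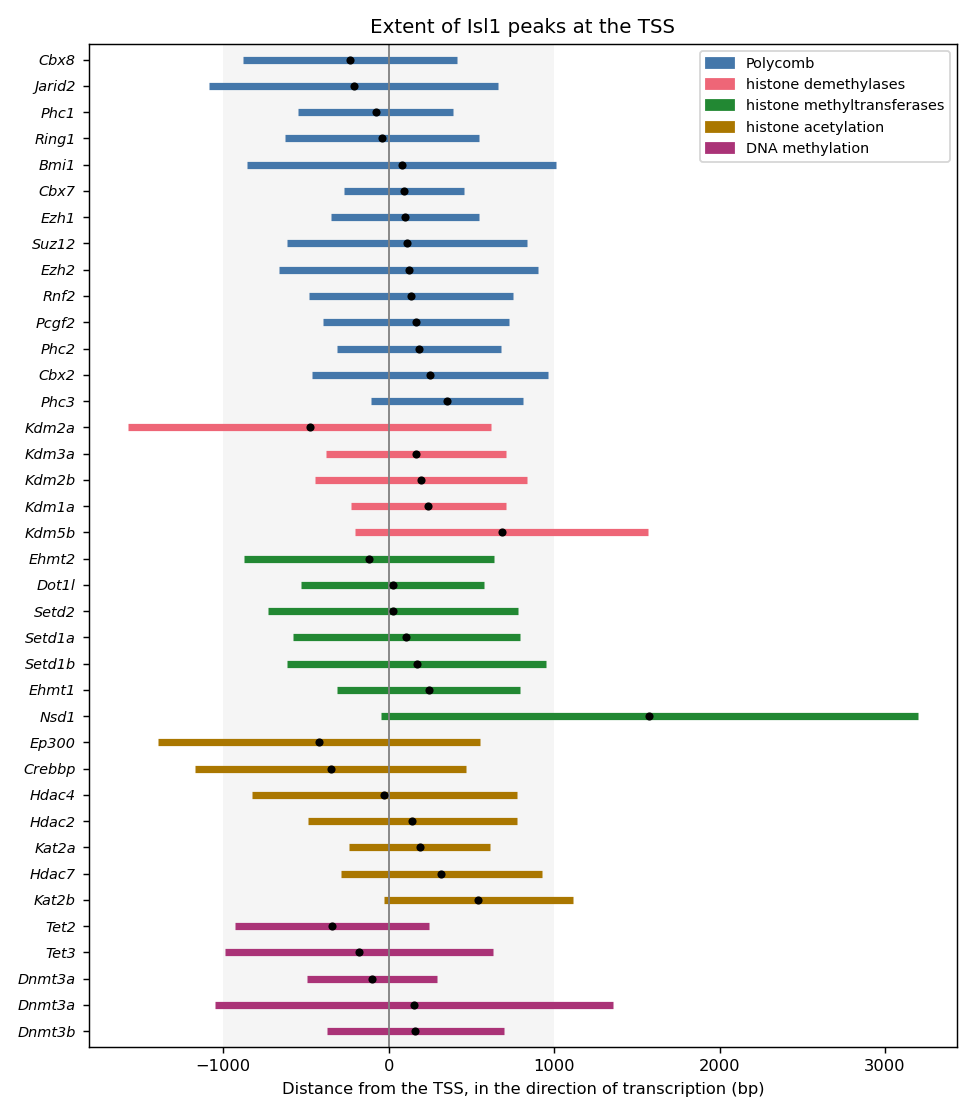
Extent of the 37 peaks with a midpoint within 1 kb of the TSS and of the Nsd1 peak, each bar running from the start to the end of a peak in bp from the TSS along the direction of transcription, with a dot at the midpoint and colours for the groups. All bars cross the TSS at 0, and widths run from 725 bp at Cbx7 to 3246 bp at Nsd1.

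Histone demethylase genes had the lowest share of promoter peaks and the highest share of peaks elsewhere. Promoter peaks were centred 164 bp downstream of the TSS of Kdm3a, 196 bp downstream of a TSS of Kdm2b, 238 bp downstream at Kdm1a, 479 bp upstream at Kdm2a and 682 bp downstream at Kdm5b. Kdm1a encodes the flavin-dependent demethylase LSD1, and the others belong to the Jumonji class. The Kdm3a peak covered chr6:71581974-71583059 and, at 59.5%, had the lowest central GC content of all 37 promoter peaks. The Kdm5b peak lay farthest from its TSS among those counted as within 1 kb. The next peak outward, at Nsd1, lay 1576 bp from its TSS.

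Kdm5b, a demethylase of active histone H3 marks, had its 1769 bp promoter peak at chr1:136456553-136458322 and a 1187 bp peak at chr1:136452776-136453963, which was centred 3386 bp upstream in intergenic DNA. Kdm2a, which binds unmethylated CpGs, had its 2194 bp promoter peak at chr19:4396459-4398653, the widest promoter peak of the group, and a 704 bp peak at chr19:4353077-4353781 in an intron 43648 bp downstream. The intronic peak lay in repeated sequence, described further on.

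Kdm2b recruits a variant PRC1 to unmethylated CpGs, and its gene has several promoters. The 1278 bp peak at chr5:123349524-123350802 lay at the start of a short coding transcript of 29688 bp, from which the amino-terminal Jumonji domain is missing. The 1025 bp peak at chr5:123401658-123402683 was assigned to a distance of 36938 bp, but its midpoint was 171 bp from an annotated internal start of a noncoding transcript and 345 bp from that of a coding one. The annotation holds 4 starts of the longest coding transcripts, which span 117853 to 118628 bp and begin downstream of the most upstream annotated start. The closest peak midpoint was 25485 to 26775 bp from these 4 starts. A 1005 bp peak 228 bp from the most upstream annotated Kdm2b start had been assigned to the neighbouring gene Orai1, which encodes a calcium channel.

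Kdm6b, a demethylase of the mark that PRC2 places, had 1 assigned peak, of 832 bp, at chr11:69251323-69252155. It was centred 24562 bp upstream of the TSS in an intron of Dnahc2, a dynein gene. A 1501 bp peak inside the body of Kdm6b had been assigned to Tmem88, 6494 bp from that gene's TSS, and lay 513 bp from an annotated internal Kdm6b start. For Kdm4c the single peak was centred 102913 bp upstream, at chr4:73785023-73785953 in an intron of Frmd3. Kdm4a, Kdm4b and Kdm5a had no assigned peak.

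All 10 peaks of the methyltransferase genes lay at single-copy sequence, and 6 lay within 243 bp of a TSS. They were centred 25 bp downstream of the TSS of Dot1l, 27 bp downstream at Setd2, 107 bp downstream at Setd1a, 120 bp upstream at Ehmt2, 170 bp downstream at Setd1b and 243 bp downstream at Ehmt1. Setd1a and Setd1b encode catalytic subunits of complexes that methylate histone H3 at active promoters, Setd2 acts in transcribed gene bodies, and Ehmt1 and Ehmt2 form a heterodimer that places a repressive mark. The Dot1l peak, at chr10:80217424-80218529, was 1105 bp wide and the closest to a TSS of all 54. Setd7 had no assigned peak.

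Setd1b carried 4 peaks, the most of any gene in the set. They were centred 3421 bp upstream (chr5:123588200-123589363, 1163 bp), 170 bp downstream (chr5:123591590-123593154, 1564 bp), 5993 bp downstream (chr5:123597736-123598654, 918 bp) and 18264 bp downstream of the TSS (chr5:123609809-123611123, 1314 bp). The last pair lay in coding exons, and the upstream peak lay in an intron of an overlapping transcript. Their central GC content was 74, 80.5, 71.5 and 68%. The ratio of observed to expected CpGs was 0.833 at the promoter, 0.658 at the upstream peak and 0.402 and 0.313 at the exonic peaks.

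Nsd1, which methylates histone H3 in transcribed and intergenic chromatin and whose human counterpart is mutated in Sotos syndrome, had the widest peak of the set. It ran over 3246 bp at chr13:55311096-55314342. It was counted as outside 1 kb because its midpoint lay 1576 bp downstream, yet it covered the annotated TSS, and its midpoint was 717 bp from a further annotated coding start.

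All 4 acetyltransferase genes had a promoter peak, whereas 4 of 7 deacetylase genes had any peak and 3 had one at the promoter. Ep300 and Crebbp, which encode the coactivators p300 and CBP, had peaks centred 422 and 352 bp upstream of the TSS, 1943 and 1637 bp wide. The centre of the Crebbp peak had the highest GC content of the set, 86.5%. Kat2b had a peak centred 542 bp downstream. Kat2a had an 851 bp peak at chr11:100573168-100574019, 188 bp downstream of the TSS, and a 515 bp peak at chr11:100569753-100570268 in a coding exon 3771 bp downstream.

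Of the deacetylase genes, Hdac2, a class I enzyme, had a peak 141 bp downstream of the TSS, and Hdac7 had one 318 bp downstream. Hdac4 had a 1600 bp peak at chr1:94076144-94077744, centred 26 bp upstream of the TSS given in the list. The closest Hdac4 start in the annotation used here lay 31974 bp from this peak, so the promoter assignment rests on the deposited annotation. The other Hdac4 peak, 103887 bp upstream at chr1:94180570-94181041, was the narrowest of the set at 471 bp. Hdac9 had a single peak of 748 bp at chr12:35418173-35418921, assigned over 183220 bp and in repeated sequence. Hdac1, Hdac3 and Hdac5 had no assigned peak.

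Both de novo methyltransferase genes carried promoter peaks, and Dnmt1, the maintenance methyltransferase gene, had none. Dnmt3a was the only gene of the 51 with 2 peaks within 1 kb of the TSS to which each was assigned. Jarid2 and Kdm2b also had 2 assigned peaks within 1 kb of annotated starts, but not by assigned distance. Peaks under other symbols added 1 such peak each at Kdm2b, Ehmt2 and Dot1l, 228, 345 and 759 bp from an annotated start. The 2408 bp Dnmt3a peak at chr12:3806108-3808516, the widest of the 37 promoter peaks, was centred 152 bp downstream of the start of the long transcript. The 783 bp peak at chr12:3891251-3892034 was centred 102 bp upstream of the internal start, from which the shorter Dnmt3a2 form is made, a form prominent in embryonic stem cells. The midpoints were 84330 bp apart. Between them lay 2 further peaks, of 970 and 553 bp, which had been assigned to the antisense gene Dnmt3aos. The peak at Dnmt3b, the other de novo enzyme, was centred 161 bp downstream of the TSS.

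Among the Tet genes, Tet2 and Tet3 had promoter peaks, centred 342 and 182 bp upstream of the TSS, and Tet1 had no assigned peak. The Tet3 start given in the list lay upstream of the annotation used here, in which the closest Tet3 start was 14896 bp from the peak. Tet2 had 3 peaks. The 1175 bp promoter peak lay at chr3:133207109-133208284 in single-copy sequence. The others, of 1208 bp at chr3:133304687-133305895 and 763 bp at chr3:133522794-133523557, were intergenic and lay 97937 and 315821 bp upstream, and both were in repeated sequence.

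**Figure D3:**
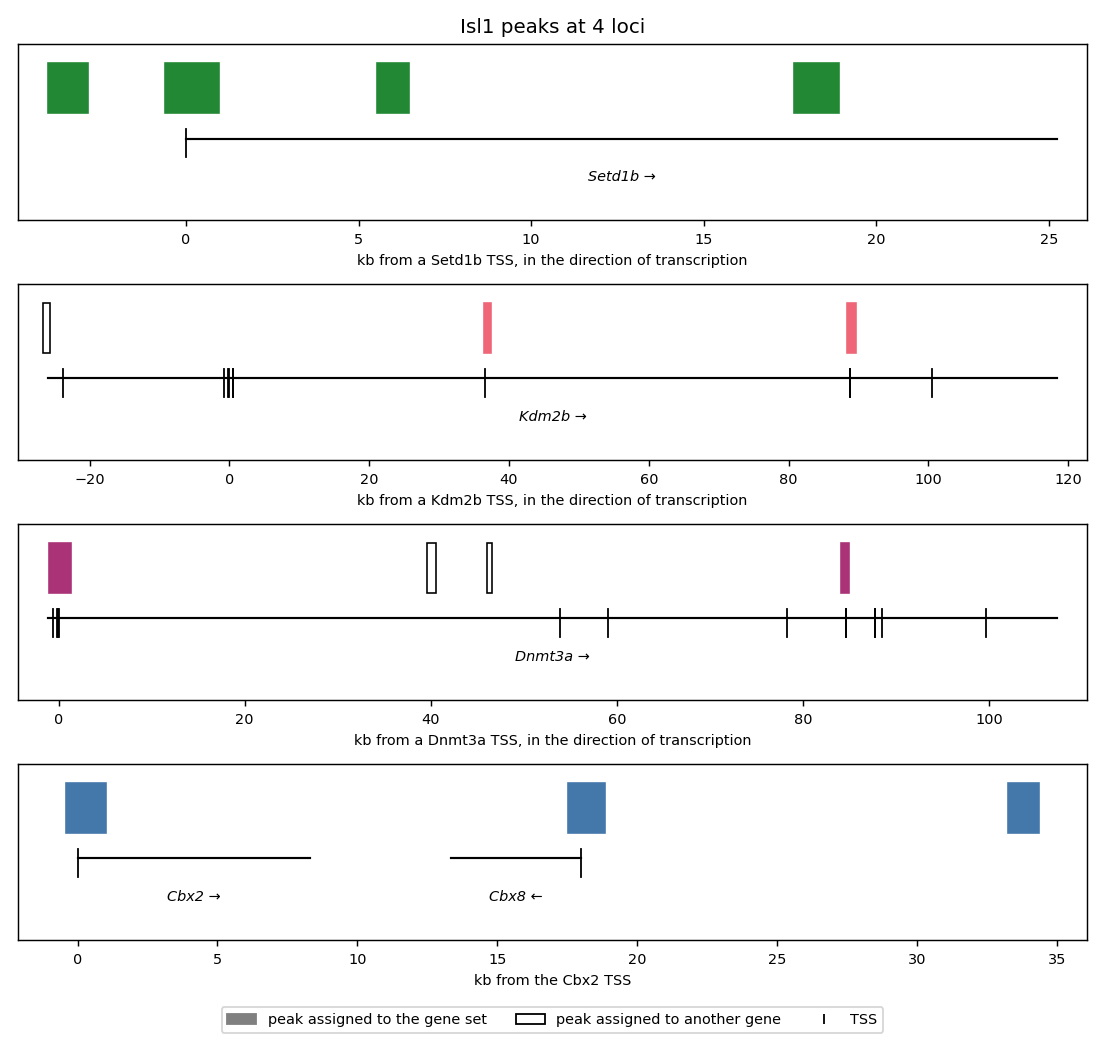
Isl1 peaks (boxes, to scale) above the gene bodies (lines) and TSSs (ticks) of Setd1b, Kdm2b, Dnmt3a and the Cbx2 and Cbx8 pair, with distance in kb from a TSS. Filled boxes are peaks assigned to the 51 genes and open boxes peaks assigned to another gene: Setd1b has 4 filled boxes, Kdm2b has none at the starts near 0 kb, Dnmt3a has a filled box at both promoters 84330 bp apart, and the last panel has 1 box at each promoter and 1 upstream of Cbx8.

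Most peaks of the set lay at a promoter. Of the 54 peaks, 37 had a midpoint within 1 kb of the assigned TSS (68.5%), against 38.5% of all peaks, 7 lay at 1 to 10 kb (13.0% against 10.5%) and 10 lay farther away (18.5% against 51.1%). All 37 promoter peaks covered the TSS itself, as did 93.9% of all promoter peaks in the list. Their midpoints lay downstream of the TSS in 25 and upstream in 12, so that 67.6% were downstream, against 80.9% of all promoter peaks. In the annotation 14 midpoints fell in untranslated exon sequence, 12 in introns, 6 between genes and 5 in coding exons.

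The median width of the promoter peaks was 1263 bp with an interquartile range of 1085 to 1564 bp, against a median of 1050 bp for all 5416 promoter peaks. By group the median ran from 1175 bp at the DNA methylation genes and 1203 bp at the Polycomb genes through 1263 bp for acetylation and 1278 bp for demethylases to 1438.5 bp at the methyltransferase genes. Median central GC content was 77% against 74% for all promoter peaks, and the median CpG ratio was 0.920 against 0.930. Among the groups, median GC content was highest at the methyltransferase genes (80.2%) and lowest at the demethylase genes (73.5%). The start of another gene within 1 kb of the midpoint was found for 1 of the 37, at Ehmt2, where the complement gene C2 is annotated (2.70%), against 10.9% of all promoter peaks.

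The promoters of the set were compared with others by base composition. A promoter was called CpG-rich when the 500 bp on each side of the 5′ end of the annotated gene had at least 55% GC and a ratio of observed to expected CpGs of at least 0.65. By this definition 34 of the 51 genes had CpG-rich promoters (66.7%), against 37.1% of 20284 annotated protein-coding genes, and the median GC content was 63.4% against 55.4%. Of these 34 genes, 28 had a promoter peak (82.4%), whereas the share was 51.6% of all genes with CpG-rich promoters. Of the other 17 genes, 8 had one (47.1%), against 8.98% of all genes without a CpG-rich promoter. Of these 8, only Kat2a had its promoter peak at the 5′ end at which composition was measured. Jarid2, Cbx7, Phc1, Hdac4, Hdac7, Dnmt3a and Tet3 had theirs at starts away from that end. The share of 47.1% therefore rests mostly on genes whose composition was measured away from the start with the peak. Some of the 28 genes with CpG-rich promoters share this limit, among them Kdm2b and Pcgf2, whose promoter peaks did not cover the 5′ end that was measured. The part of promoter composition in the share of genes with a peak was not tested.

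**Figure D4:**
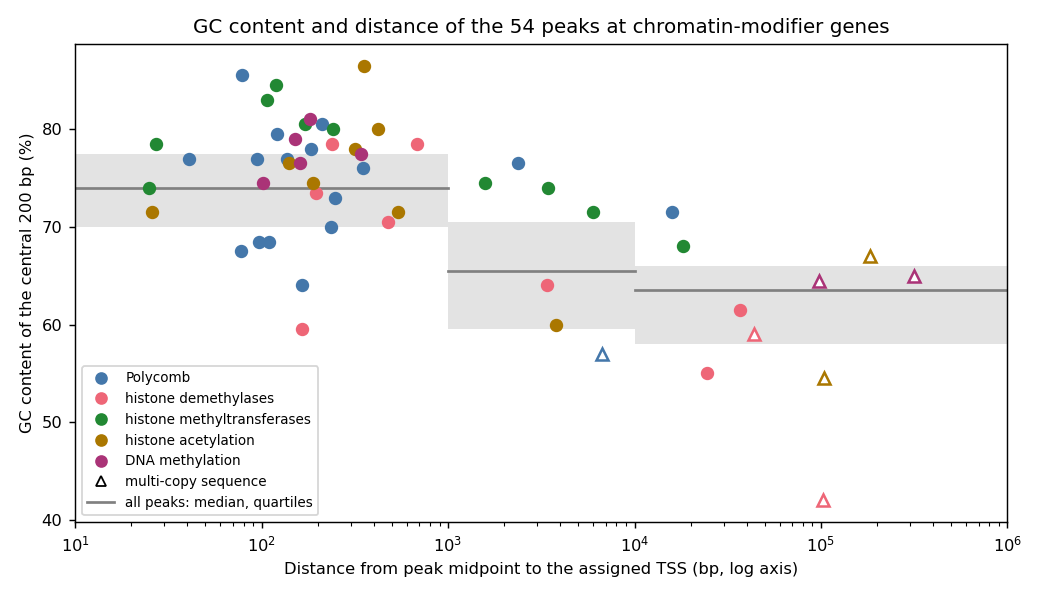
GC content of the central 200 bp (percent) of the 54 peaks against the distance of the midpoint from the assigned TSS (bp, log axis), coloured by group, with open triangles for multi-copy sequence. Grey lines and bands give the median and quartiles of all peaks in the list at each distance. The 7 triangles lie beyond 1 kb and none of the 37 promoter peaks is multi-copy.

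Few of these peaks lay on sequence that occurs at several places in the genome. A peak was called multi-copy when the 31-base words of its central 200 bp occurred at a median of at least 2 places in mm9. This held for 7 of the 54 peaks (13.0%), against 46.5% of all peaks, and for 0 of the 37 promoter peaks, against 2.62% of all promoter peaks. Of the 10 peaks more than 10 kb from the TSS, 6 were multi-copy (60%), against 81.2% of all such peaks. The distant peaks at single-copy sequence were those of Cbx8, Kdm6b, Kdm2b and Setd1b. When multi-copy peaks were left out, 38 of 51 genes kept a peak (74.5%), against 27.6% of all protein-coding genes, and Cbx6, Kdm4c and Hdac9 had none left. Reads from multi-copy sequence can be placed at more than 1 position by an aligner, and the placement at these 7 peaks could not be checked from the list.

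The centres of the multi-copy peaks were compared with each other by sequence. The median copy number of 31-base words was 3042.5 at the Tet2 peak 97937 bp upstream and 292 at that 315821 bp upstream, and 999 at the Hdac9 peak. A local alignment of the centres of both Tet2 peaks matched 88.9% of 90 columns, and one of the Hdac9 centre with the farther Tet2 centre matched 69.1% of 162 columns. The centres of both Tet2 peaks are printed here because they lie at the same gene and share sequence. They are given on the plus strand of mm9, at chr3:133305192-133305391 and chr3:133523076-133523275, with shared runs of at least 12 bases in capitals, and these stretches and those that follow were chosen after their values were seen.
Tet2, 97937 bp upstream: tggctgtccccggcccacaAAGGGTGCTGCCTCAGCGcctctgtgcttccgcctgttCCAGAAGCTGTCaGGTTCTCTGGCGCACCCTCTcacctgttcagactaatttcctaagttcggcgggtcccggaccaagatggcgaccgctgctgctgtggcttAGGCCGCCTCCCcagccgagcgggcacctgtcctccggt
Tet2, 315821 bp upstream: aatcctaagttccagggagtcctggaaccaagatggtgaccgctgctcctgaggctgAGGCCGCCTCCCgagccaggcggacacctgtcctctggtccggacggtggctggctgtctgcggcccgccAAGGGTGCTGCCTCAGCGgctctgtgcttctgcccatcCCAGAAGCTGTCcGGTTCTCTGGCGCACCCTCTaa
The capitals cover 62 bases in each. The shared block from AAGGGTGCTGCCTCAGCG to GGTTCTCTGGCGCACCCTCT stands before the block AGGCCGCCTCCC in the nearer peak and after it in the farther one.

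Other multi-copy centres were purine-rich, with runs of G and A on a single strand. At least 90% purine on a strand was found in the centres of 3 peaks, at Cbx6, Kdm2a and Kdm4c (5.56%, against 11.2% of all peaks). The median copy number of their 31-base words was 1200.5 at Cbx6, 533 at Kdm2a and 48 at Kdm4c. With 75-base words it was 1 at Cbx6, 6.5 at Kdm2a and 30.5 at Kdm4c, so that the Cbx6 centre was unique over the longer words. The central 100 bases of the Kdm2a peak, at chr19:4353380-4353479, and of the Kdm4c peak, at chr4:73785439-73785538, are given on the plus strand with each GGAGGA at Kdm2a and each GGAGAA at Kdm4c in capitals.
Kdm2a, 43648 bp downstream: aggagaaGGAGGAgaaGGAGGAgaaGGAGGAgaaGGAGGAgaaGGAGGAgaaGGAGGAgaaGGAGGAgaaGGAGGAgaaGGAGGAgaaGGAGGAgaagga
Kdm4c, 102913 bp upstream: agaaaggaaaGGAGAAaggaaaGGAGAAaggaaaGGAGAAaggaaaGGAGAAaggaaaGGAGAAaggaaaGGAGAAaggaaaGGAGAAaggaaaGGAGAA
The Cbx6 and Kdm2a centres matched in 85.6% of 195 aligned columns and those of Kdm2a and Kdm4c in 75.4% of 207. The remaining multi-copy peak, at Hdac4, had a median copy number of 2 with 31-base words and 1 with 75-base words. Its centre was 80% purine and matched that of Cbx6 in 76.1% of 117 aligned columns and that of Kdm2a in 75.2% of 117.

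The 10 genes without an assigned peak were Eed, Kdm4a, Kdm4b, Kdm5a, Setd7, Hdac1, Hdac3, Hdac5, Dnmt1 and Tet1. For some of them a peak lay nearby under another symbol. The closest peak to Hdac3 was centred 773 bp from its TSS and had been assigned to Rell2, whose TSS was 202 bp away, and a 953 bp peak inside Hdac5, 6029 bp from a start, had been assigned to G6pc3. The closest peak to Hdac1 was assigned to Marcksl1. It lay beyond the 3′ end of Hdac1, 3401 bp from an annotated internal start. For the other genes the distance was taken from the closest annotated start, internal starts included. The closest peak was 11878 bp away for Kdm4a, 21768 bp for Tet1, 31631 bp for Kdm4b, 33330 bp for Kdm5a, 79209 bp for Dnmt1, 120290 bp for Setd7 and 149237 bp for Eed. At Kdm4a, Kdm4b, Kdm5a and Setd7 this peak lay beyond the 3′ end, so the 5′ end of the gene was farther away. Of these 10 genes Eed, Kdm4b, Kdm5a, Setd7, Hdac1 and Hdac5 had CpG-rich promoters.

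Assignment to the closest TSS moved a few genes when it was replaced by position. A peak within 1 kb of any annotated TSS, whatever its symbol, was found for 38 of 51 genes (74.5%), against 28.0% of annotated protein-coding genes. By this rule Cbx6, Kdm6b, Nsd1 and Hdac3 gained a peak within 1 kb of a start, and Hdac4 and Tet3 lost theirs. At Kdm6b and Nsd1 the start within 1 kb was an internal one, not the 5′ end of the gene. Further peaks under other symbols lay inside Setd2 (1108 bp, assigned to Nradd), Ehmt2 (652 bp, assigned to Slc44a4), Dot1l (683 and 1348 bp, assigned to Plekhj1) and Hdac9 (1103 bp in multi-copy sequence, assigned to Twist1). The Ehmt2 peak and the 1348 bp Dot1l peak lay 345 and 759 bp from annotated starts of these genes.

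Short strings that resemble binding sites were sought on both strands of the central 200 bp. TAAT, the core that homeodomain proteins recognise, was present in 2 of the 37 promoter peaks (5.41%), those of Bmi1 and Hdac4, against 5.87% of all promoter peaks. It was also present in 1 distant peak, the Tet2 peak 97937 bp upstream. The longer CTAATG, which contains TAAT, was present at Hdac4 alone, against 0.591% of all promoter peaks, and can be read on the opposite strand of the Hdac4 stretch printed above as cattag. Its reversed control GTAATC was present in 0 of the 37 and in 0.702% of all promoter peaks. GATAA, the core of GATA factor sites, was present at Cbx2 (2.70%, against 2.70% of all) and in the Kdm5b peak 3386 bp upstream, and its reversed control AATAG was present at Cbx8 (2.75% of all). Over whole peaks TAAT was present in 18 of 37 (48.6%, against 59.9%) and GATAA in 9 (24.3%, against 27.8%). These matches describe letters in a window and do not identify the bases that Isl1 contacted.

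Further genes of the same pathways were taken from lists written from general knowledge. Of 80 other Polycomb, histone-modifying and DNA methylation genes, 45 had a peak (56.2%) and 35 had one within 1 kb (43.8%). Among them 11 of 17 Polycomb (64.7%), 7 of 11 demethylase (63.6%) and 17 of 25 methyltransferase genes (68%) had a peak. So did 7 of 18 acetylation (38.9%) and 3 of 9 DNA methylation genes (33.3%), shares near the 37.5% of all protein-coding genes. For a peak within 1 kb the shares of the acetylation and DNA methylation genes were 33.3% and 22.2%, against 23.2% of all protein-coding genes. Genes of these lists with 2 or more peaks were Aebp2, a PRC2 cofactor gene with 6 peaks of which 5 were multi-copy, the corepressor gene Sin3a with 3, and Kdm3b, Kdm7a, Phf2, Setd3, Smyd2, Kat6b and Mbd2 with 2 each. Of 46 genes for chromatin remodellers of the SWI/SNF, ISWI and CHD families, which move nucleosomes, 33 had a peak (71.7%) and 28 had one within 1 kb (60.9%). Chd7 and Dpf1 had 5 peaks each, Arid1a and Smarca1 had 3 each, and Arid1b, Baz2a, Smarcd1 and Smarcd3 had 2 each. All 3 Smarca1 peaks were multi-copy and lay more than 10 kb from the TSS.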

How the data were processed

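ChIP-Seq of Isl1 was analysed from 1 deposited list, made by the authors from both replicates, whose values are positions in mm9, signed distances to a TSS in bp and gene symbols, with no count, signal or score. In the study's methods, bowtie2 placed the reads on the genome, Picard 1.136 took out duplicates, MACS14 called peaks with its model building switched off, and regions on the ENCODE blacklist were discarded. The replicates were intersected with bedtools 2.15 so that the extents are those of peaks in 1 replicate, and genes were assigned by HOMER as the closest TSS. Groups were read from the sample titles. Distinct peaks numbered 14082 of 14165 lines, and none of the 54 described here was on more than 1 line. Starts are uncertain by 1 bp because the list does not say whether they count from 0 or 1.

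Base composition, copy number of 31-base and 75-base words and strings were computed from the NCBI m37 (mm9) sequence over the central 200 bp, and gene positions came from GENCODE vM1, with Python 3.11.15, numpy 2.4.6, pandas 2.3.3 and Biopython 1.88. Current symbols and the 21896 protein-coding genes came from a RefSeq table, without its coordinates, and 19 symbols of 9313 matched no gene in it. Shares carry 95% Wilson intervals. The scripts were tested on simulated data. Every one of the 51 genes was to be accounted for, with full values for peaks beyond 1 kb, genes with 2 or more peaks, the widest and narrowest peaks and the peak closest to a TSS in each group, and of the other lists the genes with 2 or more peaks. A gene of those lists is not reported here and was left out of their counts. The genes, lists and rules were chosen with earlier results of these data known, so the counts are descriptions and no test was made.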

Additional observations from a re-analysis of the deposited data

How the results depend on the processing

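Of 91 alternative values of 18 results, 76 stayed close to the reported one and 15 moved. Requiring 2 peaks per gene left 10 of the 51 genes, namely 2 Polycomb, 3 demethylase, 1 methyltransferase, 2 acetylation and 2 DNA methylation genes. Requiring 2 peaks within 1 kb left 1 gene in all, 1 in DNA methylation and 0 in each of the Polycomb, demethylase, methyltransferase and acetylation groups. Measuring whole peaks in place of the central 200 bp lowered the median GC content of the 54 peaks to 68.2% and raised the number of genes with TAAT to 24 and with GATAA to 13, the searched window being longer. The cause of the lower GC content was not tested. Widths of at least 500 bp, single-copy peaks alone, assignment to the closest annotated TSS, a peak within 1 kb of any annotated TSS and limits of 500 bp, 2 kb or 10 kb, each where it was run, left the counts over the 51 genes within 1.5 times the reported ones, from 38 to 41 for any peak and from 34 to 38 for promoter peaks. Merging within 1000 bp was run for the number of peaks, which stayed at 54. It could not join peaks of the same gene, because their nearest ends were at least 1749 bp apart. Keeping repeated lines could not change the number of peaks, since none of the 54 was on more than 1 line. Leaving out multi-copy peaks could not change the promoter counts, since no promoter peak was multi-copy. These fixed values are among the 76. No paired analysis was possible because the list combines both replicates, and for the same reason no replicate could be left out. Depth is unknown, so a peak below the caller's threshold in either replicate cannot be told from an unoccupied site.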
